A study of Arabidopsis thaliana with 2 samples.

Results

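Close tandem alternative 3′ splice sites are pairs of acceptor sites, the places where an intron ends, that lie only a few bases apart and share 1 upstream exon. They were taken from the table of alternative 3′ splice site events as the rows whose long and short exon differed by 10 bases or fewer at the alternative end. This gave 33 events in 32 listed genes, out of 66 alternative 3′ events and 270 splicing events of all kinds in the series. The plants were Arabidopsis thaliana, ecotype Col-0, and RNA was taken from their globular to heart stage embryos, dissected out of siliques. The tested genotype was the lefko mutant, whose sample is labelled lefko1 while the tables and protocol say lefko2, and it was set against wild-type embryos of the same ecotype. No label names the mutated gene, the allele or the number of lines, and each genotype is 1 sample. Each count cell joins 3 whole numbers whose nature no label states. They were summed into 1 share per genotype, and the 3 single values are shown beside it.

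An intron is removed by the spliceosome, which recognises the dinucleotide AG at its 3′ end together with a pyrimidine-rich stretch upstream, through the U2AF heterodimer. Where a second AG follows shortly after the first, either can be joined to the upstream exon, and such pairs are called tandem acceptors, with NAGNAG as the best-known form. Use of the upstream AG leaves the few bases between the sites in the mRNA, and use of the downstream AG removes them. A distance that is a multiple of 3 adds or removes whole codons, and any other distance changes the reading frame downstream. In plants, transcripts with a stop codon far upstream of the last exon junction can be targets of nonsense-mediated decay.

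The 7 events with sites 3 bases apart show how near to each other the competing sites lie. Each line runs 5′ to 3′ in the sense of the transcript, from 14 intron bases up to the upstream site through to 4 bases after the downstream site. Capitals mark the AG of the upstream site and then that of the downstream site. Sequences were read from the RefSeq TAIR10.1 genome, whose chromosome accessions equal those of the tables, with coordinates counted from 1.
AT1G62610 (chr1:23182352-23182372, minus strand): tttgtggacagaAGcAGgtat
AT3G27610 (chr3:10226823-10226843, minus strand): ttatacctttatAGcAGaatc
RPH1 (chr2:19664204-19664224, plus strand): tttatatcatttAGtAGgggc
AT3G02500 (chr3:520418-520438, plus strand): gggctggtttatAGcAGataa
PnsB4 (chr1:6460882-6460902, plus strand): atttgaaaaattAGaAGaatg
AT3G43610 (chr3:15518177-15518197, minus strand): ttatcaaacactAGcAGatgc
AT2G01690 (chr2:312446-312466, minus strand): aataccttgtaaAGcAGgata
In 5 of these 7 the downstream site was CAG, and none had CAG as the upstream site, where 5 had TAG and 2 AAG. Over all 33 events the upstream site was TAG in 14, AAG in 10 and CAG in 9, and the downstream site was CAG in 25, TAG in 6, AAG in 1 and GAG in 1. Over 131290 annotated nuclear acceptors ending in AG, the base before AG was C in 63.1%, T in 28.4%, A in 7.51% and G in 1.01%. Among the 33 alternative 3′ events with more distant sites, the upstream site was CAG in 20 and the downstream site in 21.

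Depth was a median of 33 reads an event in the mutant (6 to 179) and 84 in the wild type (4 to 493). The mutant had fewer reads in 30 of the 33 events, so its shares are less precise. Depth of whole libraries was not analysed here, and no label mentions molecular identifiers, so the exact 95% Clopper-Pearson intervals below cover counting error only. The authors' deposited table lists no alternative 3′ event with a false discovery rate (FDR) above 0.0431, so a difference in a member is what put it in the table and not a separate finding. No replicate check of any difference can be made with 1 sample a genotype. A two-sided Fisher's exact test of the summed counts, with Benjamini-Hochberg adjustment over the 66 alternative 3′ events, compares the 2 samples and not the genotypes. It gave an unadjusted and an adjusted p under 0.05 in 27 of the 33 events each, where the shares over all 66 events were 78.8% unadjusted and 72.7% adjusted. The 66 events were already listed for a difference, so the adjustment over them controls no false discovery rate. Summing also sets aside the spread of the 3 values. Each adjusted p below therefore only describes the summed counts of a listed event. The 3 mutant values did not overlap the 3 wild-type values in 27 events, against 78.8% over all 66. They lay above them in 15 events (40.9% over all 66) and below them in 12 (37.9%). Single values can rest on very few reads. Among the events without overlap, the 3 mutant values came from 1, 2 and 4 reads in SCPL43. In the event listed under AT3G14750 they came from 1, 4 and 2 reads.

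Sites 5 bases apart were the most frequent class. The distances were 3 bases in 7 events, 4 in 4, 5 in 9, 6 in 3, 7 in 5, 9 in 3 and 10 in 2, with none at 1, 2 or 8. The 10-base and 7-base events of AT3G30214 share their downstream site. Just outside the limit lay GalAK at 11 bases, with an upstream share of 0 of 31 mutant reads and 20.2% of 109 wild-type reads, and just inside lay AT1G60230 at 10 bases, with 10% of 10 mutant reads and 30.9% of 81 wild-type reads. A multiple of 3 separated the sites in 13 of 33 events, or 39.4%, and in 11 of the 33 more distant events. In the annotation, 1533 neighbouring acceptor pairs share a donor and lie at most 10 bases apart, and 1047 of them, or 68.3%, are a multiple of 3 apart. The 3-base class made up 21.2% of the listed events and 43.0% of these annotated pairs, whereas the 5-base class made up 27.3% and 8.22%. The annotated pairs are not the events the authors tested, and no test was made of this difference.

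**Figure D1:**
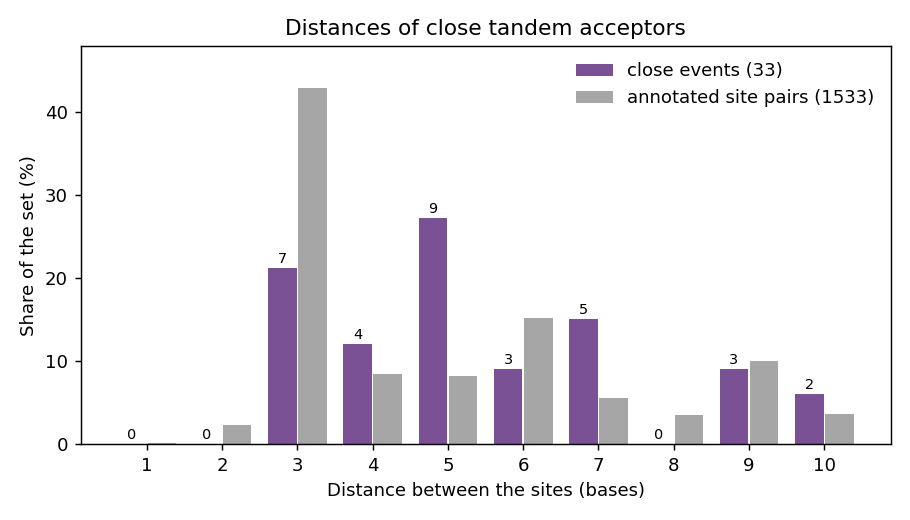
Share of the 33 close events (purple, with their number above each bar) and of the 1533 annotated acceptor pairs (grey) at each distance between sites, in percent of each set. The listed events peak at 5 bases with 9 events, and the annotated pairs at 3 bases with 43.0%.

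Both directions of change occurred, and neither site was generally favoured in the mutant. The upstream share was higher in the mutant in 18 events and lower in 15, where over all 66 alternative 3′ events it was higher in 56.1%. Reads summed over the 33 events fell on the upstream site in 39.5% of 1477 mutant reads and in 38% of 3749 wild-type reads. Without the AT4G34280 event, whose junction spans over 10 kb, the sums gave 35% in the mutant and 39.0% in the wild type. The median difference of the upstream share (mutant minus wild type) was 13.1 percentage points. It was 0.71 points in the 28 events with at least 10 reads in each genotype. Its direction turned in the 15 events with a deposited FDR of 0.01 or less, where the median was -18.8 points and 7 events were higher in the mutant. Absolute differences ran from 11.6 to 88.6 points with a median of 24.2.

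The site already used more in the wild type gained further in the mutant in 23 of the 33 events. The same held in 69.7% of all 66 alternative 3′ events. An upstream share below 10% or above 90% was found in 21 events in the mutant and in 3 in the wild type, and in the same numbers, 21 and 3, among the 33 more distant events. All reads fell on 1 site in 9 events in the mutant and in 1 in the wild type, against 10 and 2 among the more distant events. The mutant had fewer reads in most events, and the part of this lower depth in these counts was not tested. The majority site differed between the genotypes in 7 events, where the share over all 66 was 22.7%. In 6 of the 7 the mutant used mainly the upstream site and the wild type mainly the downstream one, and RPH1 was the reverse. The 6 include AT4G34280 and AT3G02500, whose values overlapped, and AT3G02500 held only 6 mutant and 4 wild-type reads. In SNL2 the wild-type upstream share of 47.4% had an interval of 35.8% to 59.2%. Among the close events with separated values, 5 changed majority site. Over all 66 events, 9 (13.6%) switched to the upstream site in the mutant and 6 (9.09%) to the downstream one, with 3 and 5 among the more distant events. The difference in direction between close and more distant events was not tested.

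**Figure D2:**
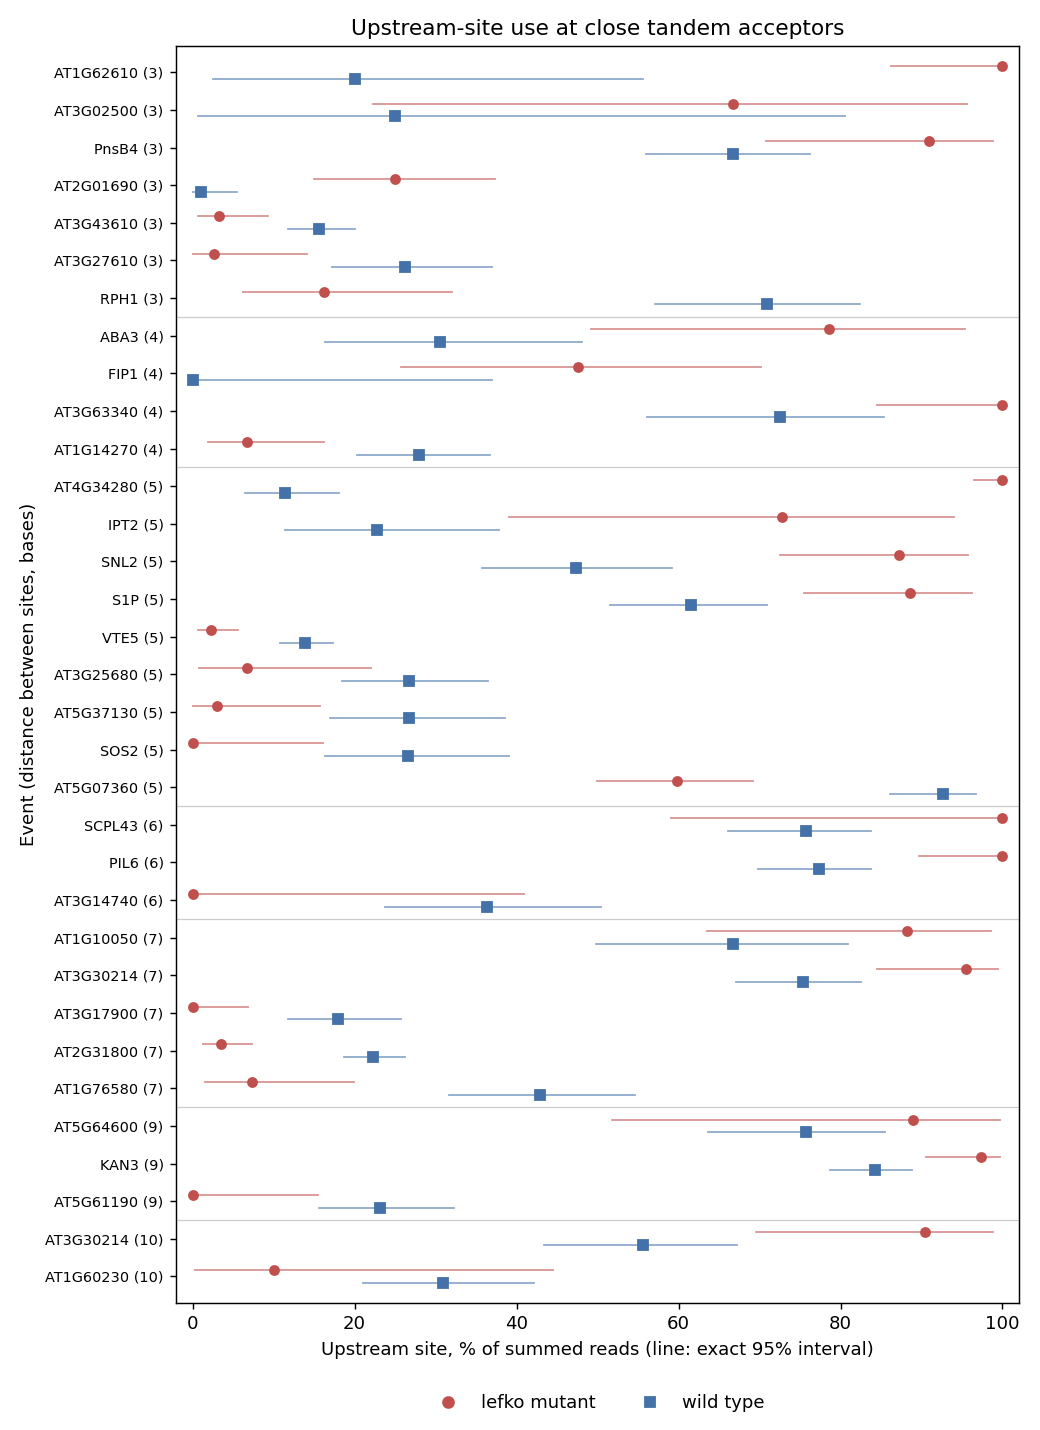
Share of summed reads on the upstream site in percent (x axis) for each of the 33 events (rows, with the distance between sites in bases), in the lefko mutant (red circles, upper of each pair) and the wild type (blue squares), with exact 95% intervals as lines. Mutant shares crowd towards both ends of the axis, with 21 below 10% or above 90% against 3 in the wild type.

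Of the 33 events, 28 lay between coding exons of the reference transcript, taken as the annotated one with the longest coding sequence. The sites were a multiple of 3 apart in 12 of these 28 and changed the frame in the other 16. In the 12 frame-keeping events the forms differ by 1 codon in 6, by 2 in 3 and by 3 in 3. The upstream share was higher in the mutant in 8 of the 12 and lower in 4, and the 3 values did not overlap in 10. Over all 19 alternative 3′ events in coding sequence with sites a multiple of 3 apart, 13 were higher in the mutant and 14 did not overlap. The largest difference was in AT1G62610, a gene for an NAD(P)-binding protein. It rested on 25 of 25 mutant reads (86.3% to 100%) and 2 of 10 wild-type reads (2.52% to 55.6%). All 3 mutant values were 100%, and the wild-type values were 0%, 66.7% and 0%, so only 1 of the 3 wild-type counts held any upstream reads.

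Frame-keeping pairs 3 bases apart went both ways. PnsB4, a subunit of the chloroplast NDH complex of cyclic electron flow, used the upstream of its 3-base sites in 100%, 84.6% and 100% of reads in the 3 mutant values and in 69.0%, 61.7% and 78.6% in the wild-type values. These ranges did not overlap, and the summed shares were 90.9% of 22 mutant reads and 66.7% of 90 wild-type reads (Fisher's exact test, adjusted p = 0.0456). The first mutant value of PnsB4 rested on 2 reads. AT3G43610, annotated as a member of the Spc97/Spc98 family of spindle pole body components, a family that nucleates microtubules with gamma-tubulin, had 7.14%, 0% and 3.77% in the mutant and 12.9%, 17.9% and 16.4% in the wild type. Its mutant values were all lower, at 3.30% of 91 summed reads against 15.6% of 321 wild-type reads (Fisher's exact test, adjusted p = 0.00348). AT2G01690, an ARM repeat protein gene, was nearly silent at its upstream site in the wild type, with 1.01% of 99 reads (0.0256% to 5.5%), and used it in 25% of 64 mutant reads (15% to 37.4%). Its mutant values were 26.7%, 45% and 10.3%, all above the wild-type values of 0%, 2.63% and 0%. AT3G27610, a nucleotidylyl transferase family gene, had 2.70% of 37 mutant reads and 26.2% of 84 wild-type reads on the upstream site. AT3G02500 held only 6 mutant and 4 wild-type reads, its values overlapped, and Fisher's exact test did not call it (adjusted p = 0.549).

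Transcription factor genes were among the frame-keeping pairs 6 and 9 bases apart. PIL6, a bHLH factor of the phytochrome-interacting family also known as PIF5, used the upstream of its 6-base sites in all 34 mutant reads (89.7% to 100%). In the wild type the 3 values were 86.0%, 64.9% and 83.3%, and 77.3% of 150 reads in sum (69.8% to 83.8%), so that the mutant lay above all of them (Fisher's exact test, adjusted p = 0.00285). KAN3, a member of the KANADI family that sets abaxial organ identity, had 97.3% of 74 mutant reads on the upstream of its 9-base sites and 84.3% of 216 wild-type reads. Its values were 93.9%, 100% and 100% in the mutant and 78.6%, 85.6% and 92.9% in the wild type, the closest pair of ranges among the frame-keeping events with over 50 reads in each genotype. AT5G61190, annotated as a putative endonuclease or glycosyl hydrolase with a zinc finger domain, went the other way. It had 0 of 22 mutant reads, which allows up to 15.4%, and 23.1% of 108 wild-type reads on the upstream of its 9-base sites. The serine carboxypeptidase-like gene SCPL43 (7 of 7 mutant reads and 75.8% of 99 wild-type reads) and the O-fucosyltransferase family gene AT5G64600 (88.9% of 9 and 75.8% of 66) were not called by Fisher's exact test, with adjusted p of 0.368 and 0.695. The 6-base event listed under AT3G14750 lies in an intron of AT3G14740, a RING/FYVE/PHD zinc finger gene. It had 0 of 7 mutant and 36.4% of 55 wild-type reads upstream (Fisher's exact test, adjusted p = 0.101).

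All 16 frame-changing coding events had 1 form with an early stop codon, defined as a stop more than 50 bases upstream of the last exon junction when the reference transcript is read from its annotated start. The early stop followed use of the upstream site in 10 events and of the downstream site in 6. Sequences of events that show each case, including both exceptions described below, are printed as above, with the AG of both sites in capitals.
SOS2 (chr5:13636328-13636350, plus strand): tgtttctcaattAGagcAGcgta
VTE5 (chr5:1280715-1280737, plus strand): tactcatctttaAGtttAGcgga
AT1G76580 (chr1:28735153-28735177, plus strand): ttggtactttttAGttgttAGgttt
S1P (chr5:6644126-6644148, minus strand): cgactctttgtcAGattAGaatc
ABA3 (chr1:5662923-5662944, plus strand): tcattttggtgtAGacAGgatg
AT5G07360 (chr5:2329631-2329653, minus strand): ctgtttatgatcAGgacAGttac
IPT2 (chr2:11826396-11826418, plus strand): atgtgtttcggcAGggcAGaact
The early-stop form had a lower share in the mutant in 14 of the 16 events, and a higher one in AT5G07360 and IPT2. Over all alternative 3′ events with an early stop in 1 form the share was 89.7% of 29, with 12 of 13 among the more distant sites, so the count is not a property of close sites. The median share of the early-stop form was 6.99% in the mutant and 27.1% in the wild type. In 14 of the 16 events the early-stop form was also the minor form of the wild type, and 12 of these 14 had a lower share in the mutant. In the 12 frame-keeping coding events, where no form had an early stop, the minor wild-type form had a lower share in the mutant in 9. The idea of sorting events by the early stop arose after the values were seen.

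**Figure D3:**
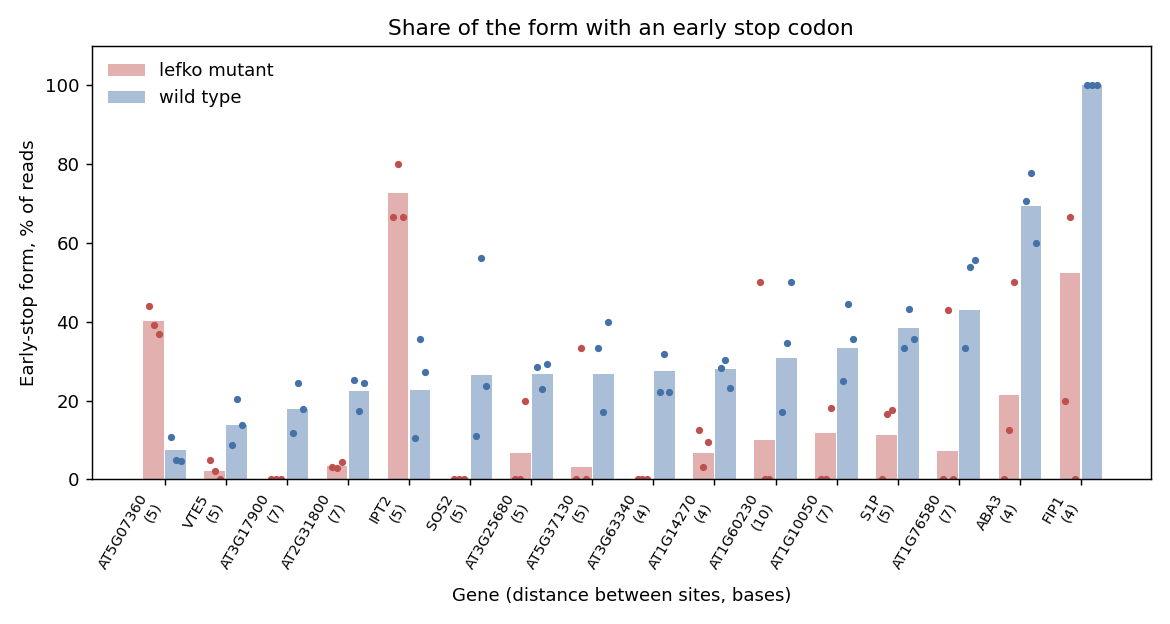
Share of reads (percent) on the form with an early stop codon in the 16 frame-changing coding events, with bars for the summed reads and points for the 3 joined values, in the lefko mutant (red, left) and the wild type (blue, right). Events are ordered by the wild-type share and the distance between sites in bases is in brackets. The red bar is the lower one in 14 genes, and the higher one in AT5G07360 and IPT2.

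SOS2, AT2G31800 and AT3G63340 are annotated as kinase genes and were among the 14. SOS2, the protein kinase that activates sodium export in salt tolerance, would be cut to 267 residues by its upstream site, against 446 from the downstream site. None of 21 mutant reads used the upstream site, which allows up to 16.1%, and 26.6% of 64 wild-type reads did (16.3% to 39.1%). The wild-type values were 11.1%, 56.2% and 23.8%, all above the mutant values of 0 (Fisher's exact test, adjusted p = 0.0155). AT2G31800, an integrin-linked protein kinase family gene with the most reads of the 33 events, had 3.12%, 2.78% and 4.35% on its upstream, early-stop site in the mutant and 25.2%, 17.3% and 24.6% in the wild type. The ranges were far apart and tight within each genotype, and Fisher's exact test gave an adjusted p of 4.54e-09 on 173 mutant and 493 wild-type reads. AT3G63340, annotated as a kinase superfamily gene, had 0 of 22 mutant reads, which allows up to 15.4%, and 27.5% of 40 wild-type reads on its downstream, early-stop site.

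Genes of abscisic acid, tocopherol and tRNA modification pathways included 1 exception. ABA3, the molybdenum cofactor sulfurase needed for the last step of abscisic acid synthesis, is cut to 448 instead of 842 residues by its downstream site. That form had 0%, 12.5% and 50% in the mutant values and 70.6%, 77.8% and 60% in the wild type, so that the major site of the wild type became the minor one in the mutant. The summed shares were 21.4% of 14 mutant reads (4.66% to 50.8%) and 69.4% of 36 wild-type reads (51.9% to 83.7%; Fisher's exact test, adjusted p = 0.00805). VTE5, the phytol kinase of tocopherol synthesis, had 2.23% of 179 mutant reads and 13.9% of 462 wild-type reads on its upstream site, which shortens the protein to 137 residues against 304. Its 3 mutant values of 4.84%, 2.13% and 0% lay below the wild-type values of 8.74%, 20.4% and 13.8%. IPT2, a tRNA isopentenyltransferase, which modifies tRNA with the side chain also found in cis-zeatin cytokinins, ran the other way. Its upstream, early-stop site held 66.7%, 80% and 66.7% in the mutant, on 3, 5 and 3 reads, and 10.5%, 35.7% and 27.3% in the wild type. The difference of 50 points rests on 11 mutant reads (39.0% to 94.0%) and 44 wild-type reads (11.5% to 37.8%), with an adjusted p of 0.00737 by Fisher's exact test.

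The other exception had more reads. AT5G07360, an amidase family gene, used its downstream site in 43.9%, 39.3% and 36.8% of reads in the mutant values and in 10.9%, 4.88% and 4.55% in the wild-type values. The summed shares were 40.2% of 107 mutant reads (30.8% to 50.1%) and 7.34% of 109 wild-type reads (3.22% to 14%; Fisher's exact test, adjusted p = 5.39e-08). Reading from that site would end the protein at 99 residues instead of 659. Depth was nearly the same in the genotypes here, unlike in most events.

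Regulators of transcription and of the secretory pathway were among the remaining early-stop events. S1P, the site-1 protease of the Golgi that releases membrane-bound transcription factors, had 0%, 16.7% and 17.6% of the early-stop form in the mutant and 33.3%, 43.1% and 35.7% in the wild type (5 of 44 and 40 of 104 reads, Fisher's exact test, adjusted p = 0.00282). AT1G76580, an SBP-domain transcription factor gene, had 7.32% of 41 mutant reads and 42.9% of 77 wild-type reads on its upstream site, which leaves 161 of 1020 residues. Its values overlapped, because 1 mutant value of 42.9% lay above the lowest wild-type value of 33.3%. AT3G17900, annotated as a heat-inducible transcription repressor, had 0 of 52 mutant reads, which allows up to 6.85%, and 18% of 128 wild-type reads. FIP1, named for its interaction with the flowering regulator FRIGIDA, had 52.4% of 21 mutant reads and all 8 wild-type reads on its downstream site. Its mutant values were spread widely, at 20%, 66.7% and 0% on 5, 15 and 1 reads. The wild-type values rested on 4, 3 and 1 reads. Both FIP1 sites are annotated in 3 transcripts each, and its early stop refers to the transcript that uses the upstream one. AT1G14270, a CAAX protease family gene (6.67% of 60 and 28.0% of 125), AT5G37130, a prenylyltransferase family gene whose values overlapped (3.03% of 33 and 26.8% of 71), and the event listed under CHUP1 (6.67% of 30 and 26.7% of 101) also had lower early-stop shares in the mutant by Fisher's exact test. The intron of the last belongs to the neighbour AT3G25680 and not to CHUP1. AT1G10050, a glycosyl hydrolase family 10 gene, and AT1G60230, a radical SAM gene, were not called by Fisher's exact test, with adjusted p of 0.132 and 0.298.

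The annotation knew only 1 of the sites in 18 events, both in 13 and neither in 2. In 16 of the 18 the annotated site had a higher share in the mutant, with AT5G07360 and IPT2 again as the exceptions, where over all alternative 3′ events with 1 annotated site the share was 89.7% of 29. The annotated site was the major one in 17 of the 18 in the mutant and in 16 in the wild type. In the 13 events with both sites annotated, the wild-type majority site gained in the mutant in 8 and lost in 5. In frame-changing coding events with 1 annotated site, the reference transcript uses that site. The early stop there fell on the other form, which follows from this choice of reference. The annotated site was also mostly the wild-type majority site, so these 3 descriptions are not independent of each other.

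RPH1 and SNL2 have their tandem sites in untranslated regions. RPH1, which bears the name of a Phytophthora resistance, has its tandem sites in the 3′ UTR of the reference transcript. Its upstream site held 0%, 33.3% and 6.67% in the mutant values and 85.0%, 68.2% and 53.8% in the wild-type values, with no overlap. SNL2, a SIN3-like scaffold of histone deacetylase complexes, has its 5-base sites in the 5′ UTR. They were used upstream in 93.8%, 85.0% and 66.7% in the mutant and 63.3%, 38.9% and 30.0% in the wild type. The summed share was 87.2% of 39 mutant reads and 47.4% of 76 wild-type reads (Fisher's exact test, adjusted p = 0.000167).

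AT3G30214, annotated as a transcribed pseudogene, listed 3 acceptors within 10 bases, as events of 7 and 10 bases with the same downstream site. The sequence runs through all of them, with the AG of the first and of the last site in capitals.
AT3G30214 (chr3:11861341-11861368, minus strand): tgaatatgtgaaAGaagaaaacAGttca
The last site held 3.17% of 63 mutant reads and 18.8% of 170 wild-type reads when the 3 sites were added up, with 10%, 0% and 0% in the mutant values and 14.3%, 22.4% and 23.1% in the wild-type values. The middle site was the main one in both genotypes, at 66.7% in the mutant and 57.6% in the wild type, and the first site had 30.2% and 23.5%. The 2 events share their downstream reads and are not separate evidence. Adding up the 3 sites takes the upstream reads of the 2 events as different reads. No label states this, so the totals and shares of the 3 sites rest on that reading.

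The event listed under AT4G34280 differs in kind from the rest. Its junction spans over 10 kb, ends in sequence antisense to HDR and matches no annotated intron, and its acceptor scores were the lowest of the 33 events for the downstream site. All 103 mutant reads fell on the upstream site and 11.4% of 132 wild-type reads did. Of the 3 wild-type values, 6.56% and 7.69% were low and the last was 100%, so the genotypes overlapped. Reads from either strand cannot be told apart here, since no label says that counting used the strand.

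Sequence strength was set beside site use in each event. A score from the base frequencies of all annotated nuclear acceptors, over 20 intron and 3 exon bases, was higher for the downstream site in 20 events and for the upstream site in 13. The site with the higher score was also the one with more reads in 21 of 33 events in the mutant and in 20 of 33 in the wild type, against 16 of 33 in each genotype among more distant sites. Across the 33 events, the Spearman correlation of the score difference (upstream minus downstream) with the upstream share was 0.28 in the mutant and 0.26 in the wild type, as a description over events that share 2 samples. In the 12 frame-keeping coding events it was 0.41 in the mutant and 0.80 in the wild type, and in the 16 frame-changing ones 0.15 and 0.16. It was 0.35 and 0.60 in the 13 events with both sites annotated, and 0.07 and 0.79 in the 7 events with sites 3 bases apart. These sets overlap and are small, and the differences between them were not tested. The AT3G17900 pair had the widest gap, with 3.47 bits upstream and 10.25 bits downstream, and the downstream site had all mutant reads and 82.0% of wild-type reads. AT1G10050 had a gap in the same direction, 2.88 against 8.36 bits, but the upstream site held 88.2% of mutant and 66.7% of wild-type reads.

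**Figure D4:**
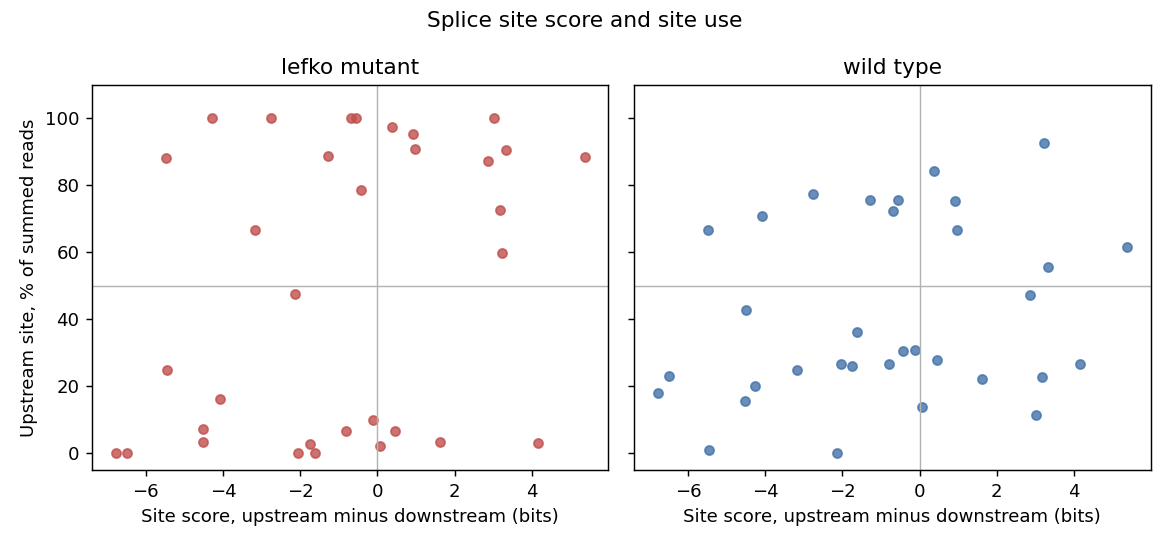
Upstream share of summed reads in percent (y axis) against the site score of the upstream minus the downstream site in bits (x axis) for the 33 events, in the lefko mutant (left, red) and the wild type (right, blue). Grey lines mark equal scores and equal use, and the Spearman correlations are 0.28 in the mutant and 0.26 in the wild type.

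None of the 32 listed genes, nor the neighbours that hold an intron, had an event in the tables of alternative 5′ sites, intron retention or exon skipping. Among 19 genes for recognising or choosing 3′ splice sites, such as the U2AF subunits, SF1, SF3B1, PRP18A and SR proteins, 1 had an event in any table, the intron retention of SR30, and none had an alternative 3′ event. Over all 37899 annotated nuclear genes and pseudogenes, expressed or not, 0.599% had an event in any table and 0.169% an alternative 3′ event. The members with known roles cover salt and light signalling (SOS2, PIL6), abscisic acid and cytokinin-related modification (ABA3, IPT2), chloroplast electron flow and tocopherol (PnsB4, VTE5), organ polarity (KAN3) and chromatin (SNL2).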

How the data were processed

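The deposited tables of splicing events give, per event, exon coordinates, joined read counts under headings IC and SC, a p-value and an FDR, the last 2 from the authors' caller. The submitters' processing notes name HISAT2 2.0.4 and TAIR10. For the event caller, no source used here gives a name or a test. IC was read as reads of the longer exon (upstream site) and SC as reads of the shorter one. No label says what the joined counts (3 whole numbers in a cell) are, so they were not modelled as replicates and were summed. Starts count from 0 in the tables and were raised by 1.

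Shares were not corrected for the length reads can fall on. Fisher's exact test used scipy 1.17.1, and adjustment statsmodels 0.14.6. The test was checked on simulated counts, and the adjustment on a short list of set p-values. Annotation and sequence are RefSeq TAIR10.1, with genes matched by ID. A share of 0 is limited by 3 reads of the total. Members, gene list and tests were chosen with earlier results of these data known, and the counts by early stop, gain at the wild-type majority site, annotated site and shares near 0 or 100% after the values were seen. Named genes are those with the largest and smallest differences, the most reads in each distance class, a changed majority site or a distance next to the limit, and the other members are given by function. Alternatives were a read minimum, a stricter FDR, other distance limits, 1 event per gene, left-out values and other site scores.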

Additional observations from a re-analysis of the deposited data

How the results depend on the processing

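No paired analysis was possible because each genotype is 1 sample. Of 100 recomputed values, 88 stayed close to those reported, 11 moved and 1 changed sign. The 18 events with a higher upstream share in the mutant became 7 of 15 with an FDR of 0.01 or less. In those 15 events the median difference reversed to -18.8 points, and 12 passed Fisher's exact test, 11 had separated values, 4 changed majority site, 10 gained at the wild-type majority site and 3 of 4 had a lower early-stop share. Fewer events enter there. The median difference was 0.71 points with at least 10 reads, 24.0 points at a limit of 6 bases and 20.1 points over events with separated values. At 6 bases, 9 of 11 events had a lower early-stop share and 13 of 23 gained at the wild-type majority site. Leaving out 1 joined value at a time gave 18 events in each case for the upstream share, medians of 9.42 to 15.7 points, 22 to 27 Fisher calls, 6 to 9 changed majority sites, 14 early-stop falls in each case and 21 to 24 gains at the majority site. With the reference transcript chosen by number of transcripts, 13 of 15 early-stop shares were lower. The counts of early-stop falls and of gains at the wild-type majority site, with their settings, and the restriction to separated values were chosen after seeing the data. The low mutant depth makes shares near 0 or 100% imprecise, and its part in their number was not tested.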
